A study of Mus musculus with 12 samples.

Results

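The immediate early genes described here were Fos, Fosb, Jun, Junb, Egr1, Egr2, Ier2, Atf3, Dusp1 and Nr4a1, 10 of the 27373 gene names on the DNA microarray. They were chosen by name: every probe whose gene name in the array files equals one of these symbols was taken, which gave 12 probes on 39 spots, and copies of a probe were averaged. The set was chosen with earlier results of these data known, so counts of called members are a description. The microarray measured RNA of whole back skin of male C57BL/6J mice, 8 weeks old, whose backs were shaved and received 200 µL daily from the following day of 3% MXD (minoxidil, the positive control), 10% N-CE (the cell extract of Notocactus ottonis) or VC (the vehicle of propylene glycol, ethanol and water, which all groups received). The RNA of 6 mice was mixed for every group after 1W, 2W and 3W of application, and a group at a given week is therefore 1 pool with no repeat. A treated pool and the VC pool from that week were compared on 2 arrays that differ in which pool carries which dye, 12 arrays in all, and the SD given below is over these 2 arrays and holds no variation between mice. In such bulk RNA, fewer cells of a type and less RNA per cell cannot be told apart.

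Immediate early genes are transcribed within minutes of a stimulus, because the factors that switch them on are already present in the resting cell. Growth factor and stress signals reach them through the ERK, JNK and p38 kinases and through cyclic AMP, which act on SRF with its ELK partners and on CREB bound to the cyclic AMP response element. Many of the products are transcription factors, among them the FOS and JUN subunits of AP-1, and their mRNAs are short-lived. DUSP1, which inactivates the kinases, and ATF3, a repressor, are themselves members and damp the response. In skin, wounding, shaving, irritation and the handling of tissue all induce them, and AP-1 has known roles in keratinocyte growth and differentiation.

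The text uses log2 folds of the treated pool over the VC pool, averaged over the dye swap. A probe was called if the P that the scanner software gives for a spot fell under 0.01 on each of the arrays, with 1 sign, and if the mean fold was also above 1.5 or below 0.75 (a log2 fold above 0.585 or below -0.415). This P describes the reading of a spot and not mice. Each gene was represented by its probe of highest signal, and all 10 genes were well above background in both dyes on all 12 arrays. The median log2 fold of all probes was 0 in each comparison. Over all bright probes the log2 folds of the 2 arrays correlated with r between 0.26 and 0.71, except in N-CE 2W, where r was -0.17. All 4 arrays from 1 week lie on 1 slide and use 1 VC pool, which means that slide cannot be told apart from week and that the MXD and N-CE folds have a common control there.

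The letters of the cyclic AMP response element, TGACGTCA, and of its core TGACG were looked for on both strands in the promoters. Cyclic AMP is among the signals that reach immediate early genes, through CREB bound to this element. From the RefSeq table (build GRCm38.p6), 12 start sites of 8 members were used, and the 250 bases before each start were read. Ier2 had no entry there. Entries on the chromosome of Egr1 were left out of the member search, so the promoter of Egr1 was not read. The shares over all promoters hold every chromosome. The core was found in 7 of these 8 genes, all but Jun, beside 17.8% of all 32851 promoters in the table. A gene was counted if any of its start sites held the core, and some start sites of Egr2 did not. The shares are per promoter entry, with 27025 gene symbols among the entries, so the units differ. Junb, Egr2 and Atf3, called in no N-CE comparison, held the core like the members called there. The full element, which contains the core on either strand, was found in Dusp1 alone among these 8 genes, beside 1.55% of all promoters. The AP-1 letters TGACTCA or TGAGTCA were found in 0 of the 8, beside 4.46% of all promoters. The promoters of the 3 genes called up in N-CE and of the gene called down in MXD 2W are shown 5′ to 3′ with the core in capitals, and a match of letters is a description and no proof of a site.
Fos (chr12:85473640-85473889, plus strand): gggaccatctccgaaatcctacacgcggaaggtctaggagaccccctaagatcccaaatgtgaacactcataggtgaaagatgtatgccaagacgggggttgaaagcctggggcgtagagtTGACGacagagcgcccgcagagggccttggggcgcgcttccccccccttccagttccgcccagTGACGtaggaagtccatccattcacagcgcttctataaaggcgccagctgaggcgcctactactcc
Fosb (chr7:19310046-19310295, minus strand): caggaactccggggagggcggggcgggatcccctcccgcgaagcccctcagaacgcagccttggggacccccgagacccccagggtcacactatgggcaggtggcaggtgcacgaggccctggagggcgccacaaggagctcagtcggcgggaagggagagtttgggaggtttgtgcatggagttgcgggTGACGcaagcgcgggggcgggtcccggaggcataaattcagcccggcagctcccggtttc
Dusp1 (chr17:26508473-26508722, minus strand): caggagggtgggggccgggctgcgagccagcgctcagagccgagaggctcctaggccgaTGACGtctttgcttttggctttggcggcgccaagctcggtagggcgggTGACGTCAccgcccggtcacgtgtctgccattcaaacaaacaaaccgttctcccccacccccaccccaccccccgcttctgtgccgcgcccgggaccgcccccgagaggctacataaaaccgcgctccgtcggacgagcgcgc
Nr4a1 (chr15:101266596-101266845, plus strand): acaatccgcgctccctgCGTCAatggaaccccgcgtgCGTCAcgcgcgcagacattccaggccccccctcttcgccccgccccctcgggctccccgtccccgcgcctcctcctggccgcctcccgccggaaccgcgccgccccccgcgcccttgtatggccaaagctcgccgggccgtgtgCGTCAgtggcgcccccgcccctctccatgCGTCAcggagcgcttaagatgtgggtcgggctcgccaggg
In Fos the core began 129 and 66 bases before the start and in Fosb 60 bases before it. In Dusp1 it began 191 and 143 bases before the start, the latter as part of the full element. Nr4a1 held it 4 times, each on the opposite strand.

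Fos encodes the subunit of AP-1 that pairs with JUN proteins, and it was the member with the highest log2 fold in N-CE at both 1W and 2W. In N-CE 1W its log2 fold was 1.45 on the array with the treated pool in Cy5 and 1.37 on the array with it in Cy3. In N-CE 2W the values were 1.64 and 1.69. The mean fold was therefore 2.66 after 1W and 3.17 after 2W, and Fos was called up in both weeks. It ranked 4 by fold among the 120 probes called up in N-CE 1W and 1 among the 28 called up in N-CE 2W. In N-CE 3W the arrays gave -0.48 and -0.79, on the other side of 0, with a mean of -0.64 ± 0.22 that was not called because the P was 0.0226 on the Cy5 array.

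The Fos probe is printed 10 times on each array (mm9, chr12:86817900-86817959), which gives the spread of repeated spots. After outlier spots were left out, 9 copies remained on each N-CE array. In N-CE 1W they ran from 1.35 to 1.54 on one array and from 1.31 to 1.42 on the other. In N-CE 2W they ran from 1.61 to 1.67 and from 1.62 to 1.73. The copies of the MXD arrays stayed between -0.34 and 0.68 in all 3 weeks, so that they did not overlap with those of N-CE 1W or 2W. For MXD, Fos had mean log2 folds of 0.40 ± 0.06 (1W), 0.53 ± 0.06 (2W) and -0.20 ± 0.09 (3W), and none of these was called.

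**Figure D1:**
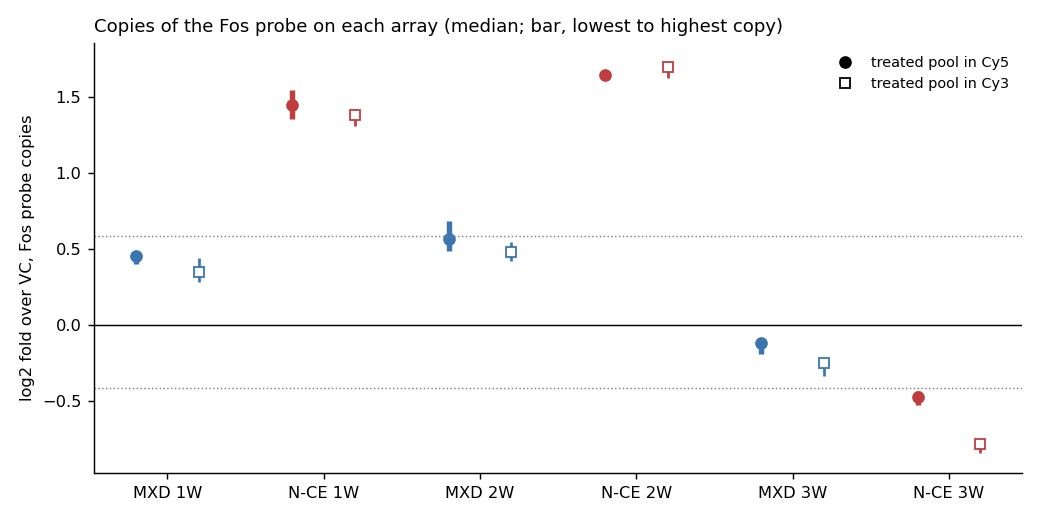
The y axis is the log2 fold over VC of the copies of the Fos probe and the x axis the 6 comparisons, with the median of the copies as a symbol (filled, treated pool in Cy5; open, treated pool in Cy3) and a bar from the lowest to the highest copy; dotted lines mark the fold thresholds. The 4 N-CE arrays of 1W and 2W lie between 1.31 and 1.73, and the N-CE 3W arrays lie below 0.

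Fosb, a further FOS family subunit, and Dusp1, the phosphatase that inactivates ERK, JNK and p38, were called up in the same comparisons as Fos. For Fosb the arrays gave 1.01 and 0.64 in N-CE 1W and 1.26 and 0.68 in N-CE 2W, with mean folds of 1.77 and 1.96. The Cy5 array was the higher one in both weeks, and the SD was 0.26 and 0.41. For Dusp1 the arrays gave 0.74 and 0.70 in N-CE 1W and 0.61 and 0.59 in N-CE 2W, with mean folds of 1.65 and 1.52. The Dusp1 readings differed by less than 0.05 between the dyes, but at 2W the mean lay close to the threshold, and it ranked 26 of 28. With normexp background correction and loess the N-CE log2 fold of Fosb was 0.55 in 1W and 0.54 in 2W, and Dusp1 in 2W had 0.58, each under the threshold.

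In N-CE 1W thus 3 of the 10 members were called up and 0 down, beside 0.292% of all 41148 probes up and 1.49% down. In N-CE 2W again 3 were up and 0 down, beside 0.0682% of 41081 probes up and 0.0511% down. The median log2 fold of the 10 genes was 0.18 in N-CE 1W and 0.37 in N-CE 2W, where all 10 had a mean above 0. With each array alone, 3 members at least were called up in both weeks. The share of all probes called up was then 1.26% to 1.29% in N-CE 1W and 0.811% to 1.13% in N-CE 2W. Among the members not called in N-CE 2W, Egr1 (EGR1 is a zinc finger transcription factor induced by ERK signals) was nearest to the threshold, with 0.45 and 0.63 on the arrays. Nr4a1, an orphan nuclear receptor of the response, had 0.62 and 0.43 in N-CE 1W and 0.46 and 0.36 in N-CE 2W.

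**Figure D2:**
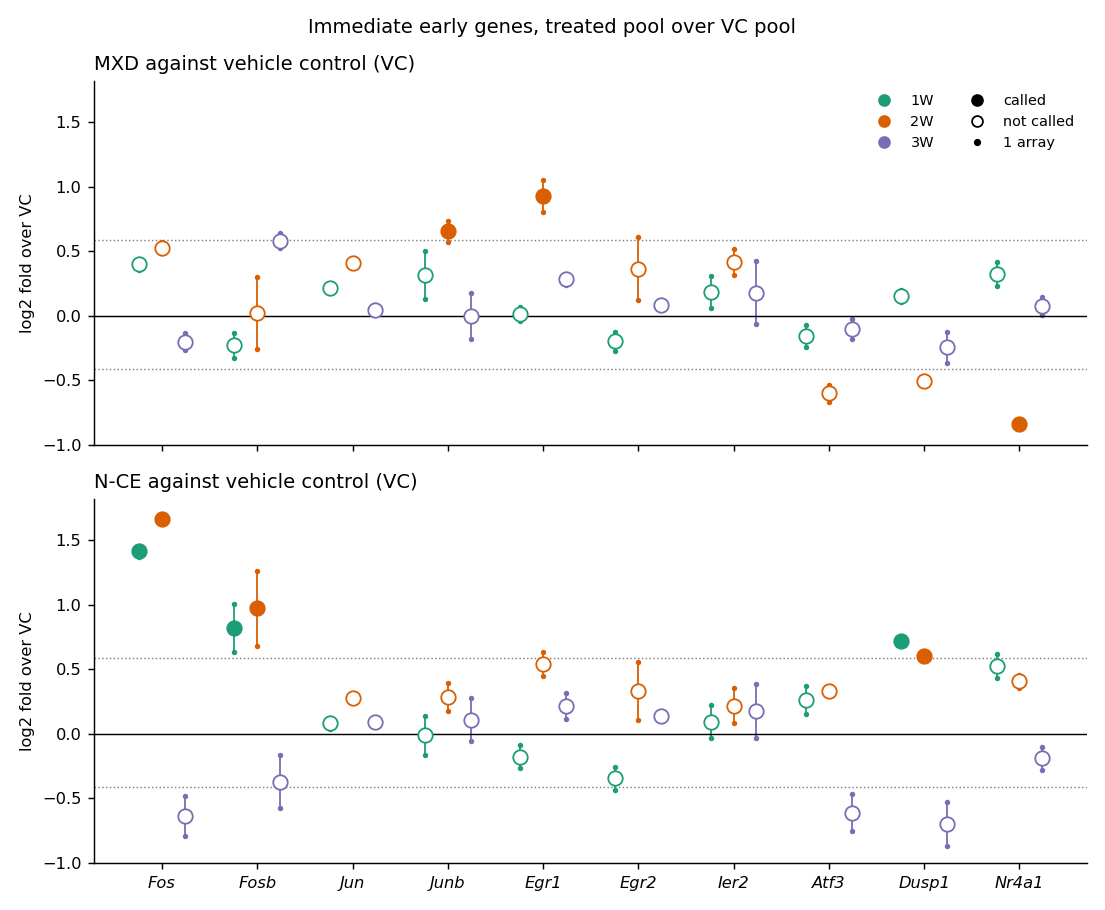
The y axis is the log2 fold over VC of the 10 genes in MXD (top) and N-CE (bottom) at 1W, 2W and 3W; large symbols are means of the dye swap, filled where called, small points are single arrays, and dotted lines mark the fold thresholds. Fos, Fosb and Dusp1 are filled in N-CE 1W and 2W, and Egr1, Junb and Nr4a1 in MXD 2W.

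At 3W, 0 members were called in N-CE, beside 0.151% of 40972 probes up and 0.139% down. In 3 genes the mean nevertheless lay below the fold threshold for a decrease. These were Fos, Dusp1 with -0.53 and -0.87, and Atf3, a repressor of the ATF family that is induced by stress, with -0.47 and -0.75. In each of the 3 the array with the treated pool in Cy3 was the lower one and passed the P criterion, and the other did not (P of 0.0226, 0.0115 and 0.0255). They were the members below the threshold in either analysis without P, with normexp and loess giving -0.56 for Fos, -0.68 for Dusp1 and -0.49 for Atf3. Fosb had -0.16 and -0.58.

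In MXD 2W, Egr1 and Junb were called up and Nr4a1 down, which are 2 and 1 of the 10 members beside 4.04% of 41152 probes up and 5.82% down. MXD 2W was the comparison with the most calls over all probes, so that this share of members is to be read against a high background. For Egr1 the arrays gave 0.80 and 1.05, a mean fold of 1.90. Junb, the JUN family subunit known to restrain growth in epidermis, gave 0.73 and 0.57, a mean fold of 1.57. Without the Cy5 array the Junb value of 0.57 was under the threshold. For Nr4a1 the arrays gave -0.83 and -0.84, a mean fold of 0.56, and it was the member with the smallest spread in this comparison apart from Jun.

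A further 2 members came near a call as decreased in MXD 2W. Atf3 had -0.53 and -0.67 and Dusp1 -0.49 and -0.52, so that both means passed the fold threshold but not the P on both arrays. In MXD 1W, 0 members were called, beside 0.685% of 41153 probes up and 0.765% down. In MXD 3W, 0 were called, beside 0.144% of 41102 probes up and 0.161% down. Fosb in MXD 3W had 0.64 and 0.52, a mean of 0.58 that lay just under the threshold. The 10 genes had a median log2 fold in MXD of 0.17 (1W), 0.39 (2W) and 0.06 (3W).

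Jun and Egr2 were called in none of the 6 comparisons, and both are printed 10 times. Jun, the partner of FOS in AP-1, had log2 folds from 0.05 to 0.41, the highest in MXD 2W with 0.41 on both arrays. Egr2, a zinc finger factor of the EGR family, was lowest in N-CE 1W with -0.43 and -0.25 and highest in MXD 2W with 0.12 and 0.61. The SD of its copies within an array was at most 0.033, smaller than the SD of 0.34 between the dyes in MXD 2W.

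Junb and Ier2 have 2 probes each. The Junb probes overlap on the genome (mm9, chr8:87500843-87500902 and chr8:87500881-87500940, minus strand) and share 22 bases, so they are no independent readings. The ends that meet are shown 5′ to 3′ to make this overlap visible, with the shared bases in capitals.
Junb, last 30 bases of A_51_P159201: acacgcacTTCGTGTCTAAAGTCTATTTTA
Junb, first 30 bases of A_51_P159194: TTCGTGTCTAAAGTCTATTTTAagatgtgt
Both probes were called up in MXD 2W, with means of 0.65 and 0.70. In N-CE they gave 0.28 and 0.28 at 2W and differed from each other by less than 0.05 in every comparison.

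The Ier2 probes gave different values, and the parts of them that the files place on chromosome 8 of mm9 lie 1529 bases apart. Ier2 encodes a small nuclear protein of the early response. The first 30 bases of each are shown to tell the probes apart.
Ier2, brighter probe A_51_P481325: ctgaactgaaccaatcaaatctgcgcagag
Ier2, dimmer probe A_52_P554555: ccccccgggaagtttaagatcattcttaac
The brighter probe was called in no comparison, and its N-CE log2 fold was 0.09 at 1W and 0.22 at 2W. The dimmer one gave 1.03 and 0.88 in N-CE 1W, where it missed the P criterion, and 1.19 and 0.86 in N-CE 2W, where it was called up with rank 2 of 28. After normexp and loess its values were 0.26 and 0.39, so the size of its fold depended on the background correction. Which transcript the dimmer probe reads was not tested.

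The signal of each pool was put on one scale over the 24 channels, to describe the level of a gene in the treated and in the VC pools. Slide and week cannot be told apart, so levels over weeks are a description. The log2 signal of Fos was 10.56 ± 0.06 in N-CE 1W, 10.31 ± 0.16 in N-CE 2W and 8.81 ± 0.07 in N-CE 3W (SD over 2 readings). In VC it was 9.35 ± 0.06, 8.96 ± 0.24 and 9.42 ± 0.12 (SD over 4 readings), and in MXD 9.76 ± 0.05, 9.57 ± 0.14 and 9.29. The N-CE pools of 1W and 2W were the highest of the 9 pools, above every reading of the others, and the N-CE 3W pool was the lowest, with readings of 8.76 and 8.86 inside the range of the VC 2W pool (8.65 to 9.18). On the processed signal as deposited, N-CE 1W and 2W were again the highest pools and N-CE 3W the lowest.

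Dusp1 was highest in N-CE 1W at 11.93 ± 0.09 and lowest in N-CE 3W at 10.01 ± 0.41. At 2W its level was 11.05 in N-CE and 10.66 in VC. Fosb likewise had its highest mean in N-CE 1W and its lowest in N-CE 3W, with N-CE 8.39, 7.56 and 6.93 and VC 7.67, 7.03 and 7.05 over the weeks, and its N-CE 3W readings (6.90 to 6.95) lay inside the range of the VC pool of the same week (6.84 to 7.18). Egr1 had its highest mean in MXD 2W at 12.95 ± 0.03, against 11.99 ± 0.22 in VC 2W, and these readings (12.93 to 12.98) overlapped those of N-CE 3W (12.55 to 12.94). Nr4a1 had its lowest mean in MXD 2W at 10.51 ± 0.01, against 11.47 ± 0.12 in VC 2W. On the processed signal the Nr4a1 levels of all 3 pools of 3W were lower than that of MXD 2W, so its rank over weeks depended on the scaling while its difference from VC 2W did not.

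**Figure D3:**
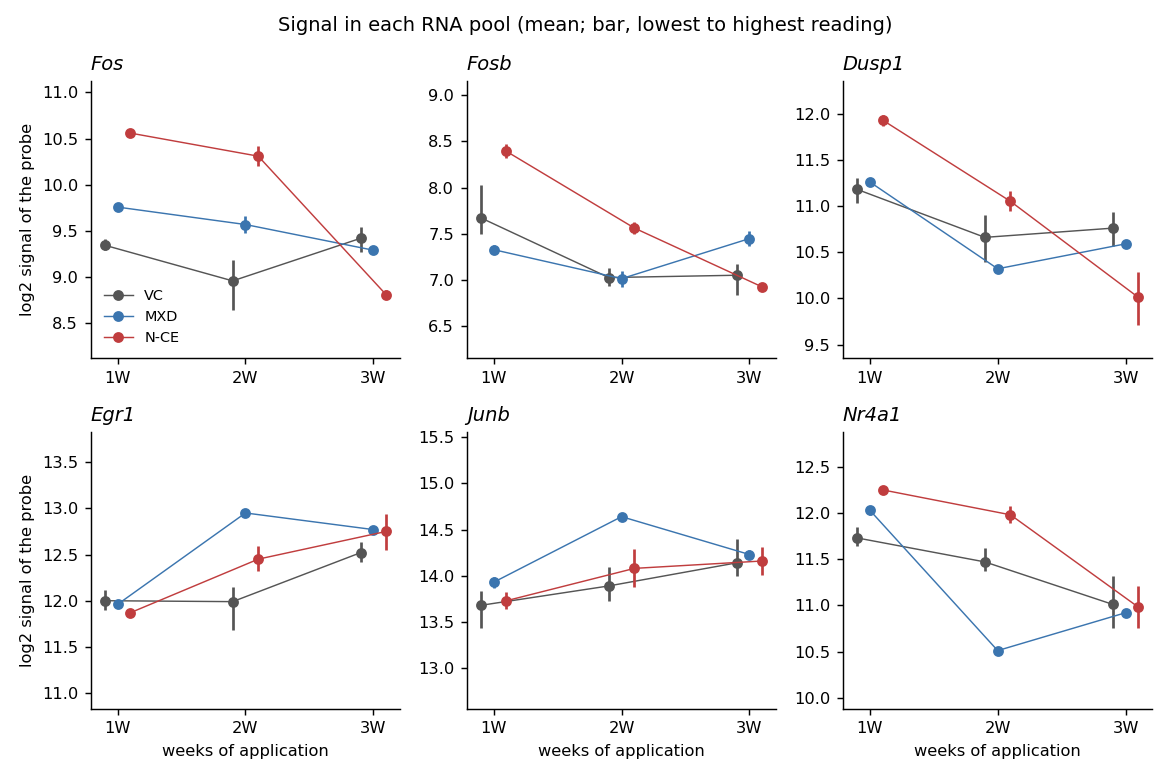
The y axis is the log2 signal of the probe of 6 genes and the x axis the weeks of application; circles are means of a pool (VC, 4 readings; MXD and N-CE, 2 readings) and bars run from the lowest to the highest reading. On this scale the means of Fos, Fosb and Dusp1 are highest in N-CE at 1W and lowest in N-CE at 3W, and MXD 2W has the highest mean of Egr1 and the lowest of Nr4a1.

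The difference of the N-CE and MXD log2 folds within a week, in which the shared VC pool cancels, was taken for each gene and dye orientation. At 1W it was 1.02 ± 0.01 for Fos, 1.05 ± 0.13 for Fosb and 0.57 ± 0.04 for Dusp1. At 2W it was 1.14 ± 0.10 for Fos, 0.95 ± 0.02 for Fosb, 1.104 ± 0.007 for Dusp1, 0.93 ± 0.13 for Atf3 and 1.24 ± 0.06 for Nr4a1. Egr1 and Junb went the other way at 2W, with -0.39 ± 0.04 and -0.37 ± 0.04. At 3W the difference was -0.44 ± 0.13 for Fos, -0.95 ± 0.21 for Fosb and -0.46 ± 0.07 for Dusp1. N-CE was above MXD in 5 of 10 genes at 1W, in 5 at 2W and in 3 at 3W. As a technical reference, the same VC pool read on the N-CE arrays and on the MXD arrays of a week differed by -0.10 to 0.35 at 1W, -0.37 to 0.27 at 2W and -0.21 to 0.47 at 3W over the 10 genes. This reference was read on the scale of the pool signals, and the folds on the deposited ratios. These scales differ, so the comparison of sizes is a rough guide. Larger in size than the largest reference difference of the week, with N-CE above MXD, were those of Fos, Fosb and Dusp1 at 1W and 2W, Atf3 at 1W (0.42) and 2W, and Nr4a1 at 2W. With N-CE below MXD, those of Egr1 at 2W and of Fosb and Atf3 (-0.51) at 3W were larger on the deposited ratios. Those of Jun, Egr2 and Ier2 were smaller in each week. With folds from normexp and loess, which the pool signals also use, the differences of Egr1 at 2W and of Fosb and Atf3 at 3W were smaller than the reference. Egr1 at 2W then had 0.54 in N-CE and 0.89 in MXD. At 3W Fosb had -0.08 and 0.35, and Atf3 -0.49 and -0.07. Atf3 at 1W, with 0.20 and -0.14, was about equal to the reference.

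**Figure D4:**
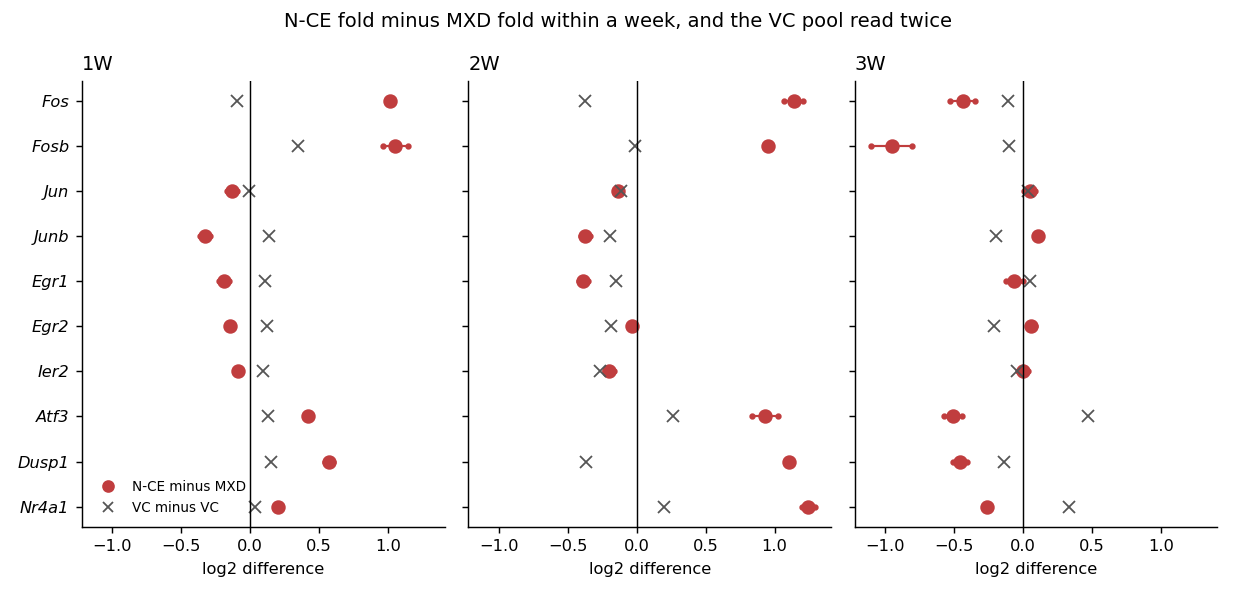
The x axis is a log2 difference and each row a gene, at 1W, 2W and 3W; circles are the N-CE fold minus the MXD fold with small points for each dye orientation, and crosses are the VC pool on the N-CE arrays minus the same pool on the MXD arrays. Fos and Fosb lie near 1 at 1W and 2W and below 0 at 3W. The crosses are on the scale of the pool signals and the circles on that of the folds.

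With the 3 weeks as the repeats of a treatment, limma called 0 of 41174 probes (0%) at an adjusted p under 0.05 for MXD, for N-CE and for their difference by week. At an unadjusted p under 0.05 the numbers were 4274, 1027 and 2026, among them 2, 1 and 0 members. The N-CE estimate of Fos over the weeks was 0.81 ± 0.49 (SE, limma adjusted p = 1), that of Fosb 0.47 ± 0.31 and that of Dusp1 0.21 ± 0.32. Ier2 had the smallest SE among members that passed the unadjusted threshold, with 0.26 ± 0.06 in MXD (limma adjusted p = 0.468) and 0.16 ± 0.06 in N-CE (limma adjusted p = 1).

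The genes most like Fos were sought over the log2 folds of the 12 arrays among 21400 probes well above background everywhere. These arrays share VC pools, so r is a description. The most alike were the dimmer Ier2 probe (r = 0.89) and Dusp1 (0.88), followed by Igfbp2, an IGF binding protein (0.87), Nab1, a corepressor of EGR factors (0.86), Folr1, a folate receptor (0.85), Arl5c (0.83), AK078857 (0.83), Pvrl3, a nectin of cell junctions (0.81), Gsap (0.81) and Lats2, a kinase of the Hippo pathway (0.80). Apart from Ier2 and Dusp1, their folds were small, between -0.64 and 0.37 in log2. Of the other members, Atf3 ranked 17 (0.78), Fosb 52 (0.70) and Nr4a1 672 (0.47), and Jun, Junb, Egr1, Egr2 and the brighter Ier2 probe ranked 2096 or lower.

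The related genes of the early response were taken from lists and counted as measured where well above background in at least 1 reading of a comparison and not left out as an outlier spot. Of 11 other AP-1, ATF and MAF factors, 0 were called in N-CE in any week. Of 14 measured other early transcription factors, 1 was called in N-CE, Nfil3 at 1W, a leucine zipper repressor tied to the clock, with -0.80 ± 0.21. Of 24 measured early regulators of signalling and RNA, 1 was called, Dusp2 at 1W, a MAP kinase phosphatase, with -1.17 ± 0.05. Nfil3 and Dusp2 were both down, beside 1.49% of all probes down in N-CE 1W. In MXD 2W, 6 of these 24 were called up and 0 down, beside 4.04% of all probes up there, against 0.292% (1W), 0.0682% (2W) and 0.151% (3W) in N-CE, and the difference between the treatments was not tested. The highest were Dusp2 (1.13 ± 0.08), the polo-like kinase Plk3 (0.89 ± 0.10) and its relative Plk2 (0.87 ± 0.14). Fosl2, a FOS family gene, was called up in MXD 2W (0.72 ± 0.03) with Nfil3 (1.03 ± 0.16), and Batf3 was called down (-0.75 ± 0.24). Of 22 upstream kinases and factors, 21 were measured and gave calls in MXD 2W alone, where the CREB kinase gene Rps6ka5 (-1.07 ± 0.37) and Mef2a (-0.98 ± 0.51) were down. The share of all probes called down there was 5.82%.

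Of the secreted and delayed early products, 4 of 19 measured were called up in MXD 1W, beside 0.685% of all probes, while 0 members were called there. The 4 included Timp1, a metalloproteinase inhibitor (1.22 ± 0.16), the collagenase Mmp13 (1.19 ± 0.05) and the chemokine Cxcl1 (0.94 ± 0.19). In N-CE 1W, Cyr61, a matrix protein induced with Fos in many cells, was up (0.69 ± 0.19) and Areg, an EGF receptor ligand, down (-0.96 ± 0.05). These were 1 up and 1 down of 19 measured, beside 0.292% and 1.49% of all probes. In MXD 2W, Areg (1.54 ± 0.43) and Edn1, endothelin (0.89 ± 0.11), were up and the stromelysin Mmp3 (-1.30 ± 0.24) and the chemokine Ccl2 (-0.78 ± 0.13) down. That is 2 up and 2 down of 16 measured, beside 4.04% and 5.82% of all probes. In MXD 3W, Thbs1, thrombospondin, was down (-1.06 ± 0.13), 1 of 16 measured, beside 0.161% of all probes. In N-CE 2W and 3W 0 were called.

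Lists of other responses were counted beside the members because stress, hormones and the time of sampling also move early genes. Of 13 heat shock and unfolded protein genes, 0 were called in any comparison. Of 8 glucocorticoid response genes, Per1 was called down in MXD 1W (-0.76 ± 0.24), the metallothionein gene Mt2 down in N-CE 1W (-0.99 ± 0.22) and up in MXD 2W (0.84 ± 0.35), and Tsc22d3 down in MXD 2W (-0.65 ± 0.05). Of 12 measured clock genes, 5 were called down in MXD 2W, beside 5.82% of all probes. The lowest were Dbp (-1.35 ± 0.06), Hlf (-1.21 ± 0.15) and Nr1d1 (-1.17 ± 0.72). In the other comparisons 0 of this list were called, with Per1 counted in the glucocorticoid list. The time of day of sampling is not given in the sources used here.

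Markers of the cell types of whole skin changed too, also in comparisons where 0 members were called. The shares of all probes called up and down, to be read beside these counts, were 4.04% and 5.82% in MXD 2W and 0.292% and 1.49% in N-CE 1W. They were 0.0682% and 0.0511% in N-CE 2W and 0.685% and 0.765% in MXD 1W. As for the labelled tissue, 8 of 8 keratinocyte markers and 6 of 6 fibroblast markers were well above background in every reading that was not left out as an outlier spot. In MXD 2W, 8 of 8 skeletal muscle markers (median -1.46), 4 of 8 keratinocyte (-0.72), 3 of 6 fibroblast (-0.84), 4 of 6 adipocyte (-0.68) and 3 of 5 macrophage (-0.74) and 2 of 5 endothelial markers (-0.46) were called down and 5 of 5 melanocyte markers up (1.27). There 1 of 5 neutrophil markers was also called up, and of 3 erythrocyte markers 1 was up and 1 down. Of the melanocyte markers, Tyr was not well above background in VC on either array, so its fold is only known to be at least 1.29. The log2 of the summed muscle signal there was 16.24 to 16.87 in MXD and 17.93 to 18.02 in VC, without overlap, and that of the melanocyte markers 15.11 to 15.22 and 13.91 to 14.06. In N-CE 1W, where Fos, Fosb and Dusp1 were up, 4 of 4 measured melanocyte markers were called down (-1.80; summed log2 signal 11.92 to 12.08 in N-CE and 13.59 to 13.61 in VC), 1 of 3 erythrocyte markers down, 1 of 4 neutrophil markers up, and 0 of the keratinocyte, fibroblast, muscle, adipocyte, macrophage and endothelial lists. In N-CE 2W, 1 of 8 muscle and 1 of 6 adipocyte markers were called down, 2 of 3 erythrocyte markers were called, 1 in each direction, and 0 of the keratinocyte, fibroblast, melanocyte, neutrophil, macrophage and endothelial lists. In N-CE 2W the summed muscle signal was 17.31 to 17.53 in N-CE and 17.65 to 18.06 in VC. In MXD 1W, 4 of 5 neutrophil markers were up (1.78), 3 of 4 measured melanocyte markers up (0.74) and 6 of 8 muscle markers down. The neutrophil median is the value of Cxcr2. This gene was not well above background in VC on either array, so its fold is only known to be at least 1.26. In MXD 3W, 4 of 5 melanocyte markers were up (0.73) and 2 of 8 muscle markers down, beside 0.144% and 0.161% of all probes. In N-CE 3W, 1 of 5 melanocyte markers was up and 1 of 3 erythrocyte markers down, beside 0.151% and 0.139%. None of the defining markers of muscle was at background in any reading. The part of these cell types in the values of the members was not tested.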

How the data were processed

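The DNA microarray experiment compared RNA pools of back skin on 12 Agilent Whole Mouse Genome arrays, 6 comparisons of 2 arrays each. The authors deposited Agilent Feature Extraction output (version 12.0.3.1 in the file headers, 11.0.1.1 per the labels), in which each spot has a log10 ratio of Cy5 over Cy3 taken after the background was subtracted and the dyes were balanced by LOWESS. A deposited p-value per spot reflects an error model of that software. Signal intensity was deposited by the authors raw and processed. The deposited series matrix equals the log10 ratio of the processed intensities. Probe positions are on mm9.

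Tables were made in Python 3.11.15 (pandas 2.3.3 on numpy 2.4.6), and limma 3.58.1 ran in R 4.3.3. Control and outlier spots were left out, ratios were turned to treated over VC on the log2 scale, copies of a probe were averaged and the dye swap was averaged. Signals of pools came from normexp (offset 50), loess and Aquantile. Weeks were tested with limma (lmFit and eBayes) with Benjamini-Hochberg adjustment over all probes. The code of the steps was run on simulated data. For the calls, the simulated noise cancels in the mean of a dye swap, so this run checks the code and gives no error rate. The number of arrays limits the precision.

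The members and the gene lists were chosen with earlier results of these data known. Named were all members with every probe, from each list the called genes (at most the 3 highest and 3 lowest of a comparison), and the 10 genes most like Fos. The values of 1 called list gene are not reported here. Alternatives covered the P criterion, fold thresholds, background correction, a filter on dim probes, averaging, outlier spots, the matrix, each array alone, all probes of a gene, each week left out, the slide as a random block and the scaling of signals.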

Additional observations from a re-analysis of the deposited data

Results flagged for a closer look

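Of the members, 2 lay past the fold thresholds in opposite directions on both arrays of either comparison, and these differences were not tested, as each group and week is 1 pool. For Fos the log2 fold of N-CE 1W (1.41) minus that of N-CE 3W (-0.64) was 2.05, and that of N-CE 2W (1.66) minus N-CE 3W was 2.30. For Dusp1 the difference was 1.42 between N-CE 1W (0.72) and N-CE 3W (-0.70) and 1.30 between N-CE 2W (0.60) and N-CE 3W. Between the treatments at 2W, the MXD value of Dusp1 (-0.50) minus the N-CE value (0.60) was -1.10. The values of N-CE 3W and of MXD 2W in these differences were not called.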

How the results depend on the processing

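Each group and week is 1 pool, so the P describes spots and no value holds the variation of mice. No paired analysis was possible because the 2 arrays of a group are 1 pool with exchanged dyes, which leaves no test across samples within a week that could carry a block. The 3 members called up in N-CE 1W and the 3 in N-CE 2W, and the 2 up and 1 down in MXD 2W, stayed within 1.5 times these counts under every alternative for N-CE 1W and for the increase in MXD 2W. The exceptions in the other comparisons were as follows. Without the P criterion, 3 members were down in MXD 2W and 3 in N-CE 3W, beside 18% and 5.87% of all probes, and with normexp and loess 3 were down in each of these and 1 up in N-CE 2W, namely Fos, beside 8.77%, 0.456% and 0.0365% of all probes in these directions. With 1 array left out, the count of members ranged from 1 to 2 down in MXD 2W, from 0 to 1 up in MXD 3W and from 0 to 3 down in N-CE 3W. The shares of all probes in these directions were 9.26% to 10.1%, 0.36% to 0.428% and 0.515% to 0.815%. No called member changed sign. Fosb in N-CE 1W and 2W, Dusp1 in N-CE 2W and Junb in MXD 2W lost the call under 1 alternative each. Over all probes, 597, 732, 4058, 49, 125 and 119 were called in MXD 1W, N-CE 1W, MXD 2W, N-CE 2W, MXD 3W and N-CE 3W. Without the P criterion these were 5645, 5567, 11868, 3257, 2858 and 3632. With 1 array left out they ranged from 1486 to 1666, 1528 to 1662, 6868 to 7762, 729 to 1061, 402 to 425 and 501 to 654. With normexp and loess, 166 were called in N-CE 2W, 239 in MXD 3W, 238 in N-CE 3W and 4782 in MXD 2W, and the split of up and down went from 28 and 21 to 15 and 151 in N-CE 2W, from 59 and 66 to 39 and 200 in MXD 3W, from 62 and 57 to 51 and 187 in N-CE 3W, from 1661 and 2397 to 1171 and 3611 in MXD 2W, from 120 and 612 to 51 and 771 in N-CE 1W and from 282 and 315 to 185 and 576 in MXD 1W. With the 12 arrays and the slide as a random block, which takes the 2 arrays of a pool as separate, limma called 494 probes for MXD over the weeks, 0 of them members. The cause of these shifts was not tested. On the processed signal as deposited, 64 levels of members in the pools were counted as moved and 26 as the same, so the levels depended on the scaling. The signal of a probe also depends on its sequence, so levels were compared within a probe only.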

Other observations

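Over all probes, 604 were called in both N-CE 1W and MXD 2W, which use VC pools of different weeks (82.5% of those called in N-CE 1W and 14.9% of those in MXD 2W), and 602 of them had opposite directions. The genes of the lists that were called in both are part of this pattern over the array. Of the 8 genes called in N-CE 1W among the members and the lists that are no cell type markers, 4 were called in MXD 2W too, where 25 such genes were called (16.0%), each down in N-CE 1W and up in MXD 2W. These were Areg, Nfil3, Dusp2 and Mt2, and they were chosen after their values were seen. Areg had -0.92 and -0.99 on the arrays of N-CE 1W and 1.24 and 1.84 on those of MXD 2W. Dusp2 had -1.20 and -1.13 against 1.07 and 1.18. Nfil3 had -0.65 and -0.94 against 1.15 and 0.92, and Mt2 -0.83 and -1.14 against 1.09 and 0.59. Fos, Fosb and Dusp1, up in N-CE 1W, were not among the 604, with 0.53, 0.02 and -0.50 in MXD 2W.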
